A study of Homo sapiens with 6 samples.

Results

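MX1 and MX2 are a pair of interferon-induced genes that lie next to each other on the long arm of chromosome 21, and they were 2 of the 58051 genes counted in A172 cells carrying a construct for GFP or for RBFOX1. The members were chosen by name and on measured values, since their difference between RBFOX1 and GFP cells had opposite signs in these same libraries. That difference is therefore given below as a description, with no test.

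The MX genes encode dynamin-like GTPases that assemble into rings and helices and that cells make in response to type I and type III interferon. MX1, also called MxA, is found in the cytoplasm and blocks influenza virus and many other RNA viruses, whereas the long form of MX2, also called MxB, sits at the nuclear envelope and restricts HIV-1 and herpesviruses. Receptors of type I and type III interferon signal through the kinases JAK1 and TYK2 to transcription factors, STAT2 and IRF9 among them. These factors bind interferon-stimulated response elements near the start sites of interferon-induced genes.

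The A172 cells, an established line from a human glioblastoma, had been infected with lentivirus made in HEK293T cells, in the presence of polybrene, to carry the pLX317 vector with either RBFOX1, an RNA-binding protein that controls splicing and mRNA stability, or GFP, a fluorescent protein used as the control. Both lines were thus transduced, and untransduced cells were not analysed here; whether the lines were pools or single clones was not given in the sources used here. The study describes 3 biological replicates of each line, whose total RNA was depleted of rRNA and read from both ends, 100 bases each, with strand kept.

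The counts on genes ranged from 7433414 in RBFOX1 replicate 1 to 23249221 in GFP replicate 1, and 3 counts were worth between 1.82 and 5.44 normalized counts, that is, counts scaled to a common library size. RBFOX1 had 4, 0 and 1 counts in GFP replicates 1 to 3 and 10276, 16467 and 21451 counts in RBFOX1 replicates 1 to 3. Of the 10 glioblastoma line markers, VIM, NES, CD44, SOX9 and EGFR were well expressed, while GFAP had 1 to 4 counts and S100B at most 2 counts in a library. Their sum was 81925 to 82813 normalized counts in GFP and 54732 to 55375 in RBFOX1 libraries, and of the 9 tested 5 were lower, CD44 (log2 fold change -0.90) and VIM (-0.65) among them, and 2, NES and SOX2, were higher. The summed level of 12 immune markers was 64.2 to 89.2 normalized counts in GFP and 87.1 to 93.1 in RBFOX1 libraries, with CD3E, MS4A1, NKG7, CLEC4C and LILRA4 at 0, PTPRC higher (16.1 to 60.3) and ITGAM lower (54.4 to 24.8). The 6 epithelial markers summed to between 249 and 260 and to between 238 and 277 normalized counts. Of these, KRT5 (0.202 to 37), CDH1 (0.389 to 4.82, at most 5 counts in a library) and KRT19 (21.4 to 34.7) were higher and CLDN4 (220 to 169) was lower. The part of these markers in the results was not tested. In RNA from whole cultures, fewer cells expressing a gene and less of its RNA per cell cannot be told apart.

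Both genes lie on the plus strand of GRCh38, with MX2 upstream. MX2 (ENSG00000183486) spans chr21:41361999-41409393, and its canonical transcript has 14 exons, a coding region for 715 residues and a 3′ UTR of 1160 bases. MX1 (ENSG00000157601) starts 10626 bases further on and spans chr21:41420020-41470071, with a canonical transcript of 17 exons, a coding region for 662 residues and a 3′ UTR of 454 bases. The canonical transcripts share no stretch as long as a read: the longest identical run is 68 bases. On the opposite strand, exons of MX1 share 562 bases with exons of TMPRSS2 and 436 bases with exons of the lncRNA ENSG00000228318, which had at most 1 count and 0 counts in a library, and the libraries were counted by strand. The letters TGCATG, a form of the RBFOX motif in DNA letters, occur 0 times in the canonical transcripts of MX1 and MX2. At least 1 occurrence in the canonical 3′ UTR was held by 36.5% of 14052 tested protein-coding genes. The share was 21.1% of the 90 tested interferon-induced genes listed below, so having none there is common among such genes. The median 3′ UTR was 1298 bases in all and 1040 bases in the listed genes. Introns were not searched, and neither were shorter or other forms of the motif.

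Promoter sequence, from 250 bases before to 50 bases after each start site, was read for MX1 from RefSeq on GRCh38.p14, where 1 of the 2 genes matched, with 3 start sites. The windows below are printed because they hold matches to the core letters of an interferon-stimulated response element, namely GAAA repeated after a gap of any 2 bases or of any 1 base, searched on both strands with overlaps allowed. They are written 5′ to 3′ on the plus strand, with the match in capitals, and TTTC at its ends marks a match on the minus strand.
MX1 first start site, chr21:41420559-41420588: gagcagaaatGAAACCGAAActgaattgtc
MX1 canonical start site, chr21:41426115-41426144: caggagctaggTTTCGTTTCtgcgcccgga
MX1 canonical start site, chr21:41426160-41426189: gggtctgtgagTTTCATTTCttcgcggcgc
MX1 last start site, chr21:41431844-41431873: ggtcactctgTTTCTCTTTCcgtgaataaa

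The first of these begins 11 bases after its start site and overlaps a match with the 1-base gap on the same strand. Another match with the 1-base gap, on the minus strand and not printed, begins 19 bases before that start site. The matches upstream of the canonical start site, at position 41426239, begin 113 and 68 bases before it. The motif with the 2-base gap occurs in the windows of 4.38% of all 27305 genes in the RefSeq table and of 63.9% of the 72 interferon-induced genes that matched it, or in 3.57% of all 35116 windows and 55.6% of the 90 windows of those genes. Not every interferon-induced gene called higher or lower in RBFOX1 cells matched the RefSeq table. Either spacing was held by 78.1% of the 32 higher genes that matched and by 78.6% of the 14 lower ones, against 7.83% of all genes. MX1 thus carries letters common to the promoters of both groups.

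MX1 was lower in RBFOX1 cells. It had 588, 292 and 351 counts in GFP replicates 1 to 3 and 125, 191 and 222 counts in RBFOX1 replicates 1 to 3, or 357, 341 and 370 against 227, 212 and 203 normalized counts. Every RBFOX1 library lay below every GFP library, an order shown by 26.5% of the 20536 genes tested. GFP cells had a mean of 356 ± 14.4 and RBFOX1 cells of 214 ± 12.1 normalized counts (SD over n = 3 replicates), a log2 fold change of -0.75 (SE 0.0839) or a level 1.68 times as high in GFP cells. The 3 values of each line lay close together, with a coefficient of variation of 4.05% in GFP and 5.66% in RBFOX1 cells, where counting error alone gives 8.94% in the shallowest library for this gene.

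MX2 was higher in RBFOX1 cells. It had 532, 310 and 268 counts in GFP replicates 1 to 3 and 514, 883 and 686 counts in RBFOX1 replicates 1 to 3, or 323, 362 and 282 against 932, 980 and 626 normalized counts. Every RBFOX1 library lay above every GFP library, as for 26.9% of all genes tested, but RBFOX1 replicate 3 stood well below the other two. GFP cells had a mean of 322 ± 39.8 and RBFOX1 cells of 846 ± 192 normalized counts, a log2 fold change of 1.38 (SE 0.127) or 2.6-fold. Its coefficient of variation was 12.4% in GFP and 22.7% in RBFOX1 cells, against a largest counting error of 6.11%. Without RBFOX1 replicate 3 the log2 fold change of MX2 was 1.58.

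**Figure D1:**
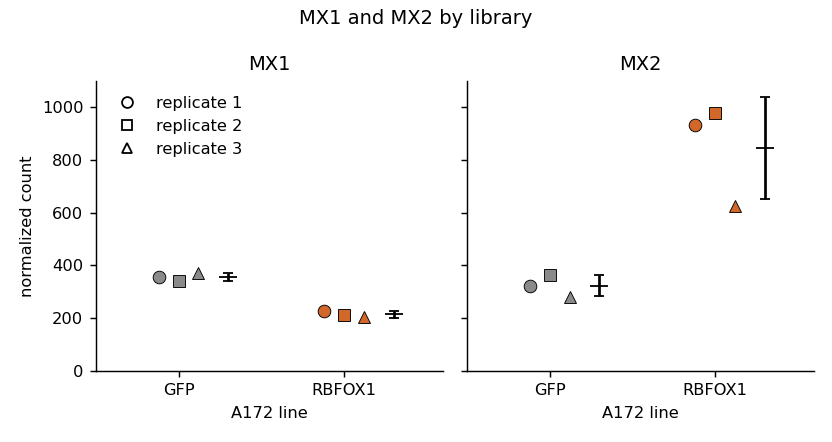
Normalized counts of MX1 and MX2 in each of the 6 libraries (points) with the mean ± SD of 3 replicates per line. The MX1 values lie between 341 and 370 in GFP and between 203 and 227 in RBFOX1 cells, and the MX2 values between 282 and 362 and between 626 and 980.

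The balance between the genes shifted towards MX2. The ratio of MX1 to MX2 normalized counts was 1.11, 0.942 and 1.31 in GFP and 0.243, 0.216 and 0.324 in RBFOX1 replicates 1 to 3. In GFP cells the genes had near-equal counts, whereas in each RBFOX1 library MX2 was the larger by far. MX1 made up 52.6 ± 4.1% of the summed MX count in GFP and 20.6 ± 3.45% in RBFOX1 cells, while the sum was 678 ± 25.5 and 1060 ± 201. Per kilobase of canonical transcript, which allows levels of different genes to be compared, MX1 stood at 9.24 ± 0.374 CPM per kb (counts scaled to the library total and divided by length) in GFP and 5.55 ± 0.314 in RBFOX1 cells, and MX2 at 6.82 ± 0.843 and 17.9 ± 4.06. On this scale the ratio of MX1 to MX2 was 1.37 ± 0.226 in GFP and 0.32 ± 0.0685 in RBFOX1 cells. The order in GFP cells depended on the length used: over all annotated exons of each gene, MX1 stood at 1.43 ± 0.0577 and MX2 at 1.6 ± 0.197 CPM per kb in GFP, and at 0.857 ± 0.0485 and 4.19 ± 0.95 in RBFOX1 cells.

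Ordered by CPM per kb of canonical transcript among the 90 tested interferon-induced genes and themselves, MX1 was number 49 and MX2 number 55 of 92 in GFP cells. There MX1 stood between IFI6 (10.5 ± 1.52 CPM per kb) and PSMB10 (9.05 ± 0.32), and MX2 between DDX60 (7.1 ± 0.541) and GBP2 (6.31 ± 0.314). In RBFOX1 cells MX2 was number 36, between TRIM5 (18.2 ± 0.874) and TRIM21 (17.8 ± 1.21), and MX1 number 65, between USP18 (5.92 ± 1.58) and PSMB10 (5.53 ± 0.464). In every case the libraries of MX1 or MX2 overlapped those of the gene on either side, so these neighbouring places are not distinct. The median level of the list was 11.4 CPM per kb in GFP and 14.5 in RBFOX1 cells.

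How MX1 and MX2 stood among other interferon-induced genes was read from a list of 94 such genes that leaves MX1 and MX2 out. Of the 90 tested, 43 (47.8%) were higher in RBFOX1 cells by edgeR's quasi-likelihood test at an adjusted p under 0.05, where 23.7% of all genes tested were higher, 19 (21.1%) were lower, where 22.9% of all genes were lower, and 28 did not pass. The median log2 fold change was 0.22 over the list and 0.0051 over all genes tested. MX2 thus had the sign of the larger group and MX1 that of the smaller. Without RBFOX1 replicate 3 the counts were 49 higher and 14 lower.

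MX1 lay near the lower end of the list and MX2 among its upper members. The log2 fold changes of 4 of the 90 genes were below that of MX1, namely LAMP3 (-2.85), CH25H (-0.90, at most 13 counts in a library, not past the threshold), PHF11 (-0.87) and SLFN5 (-0.83). Those of 16 were above that of MX2, from IFITM3 (1.41) to IFITM1 (6.10). Among all 20536 genes, 11.1% had a log2 fold change below that of MX1 and 6.8% had one above that of MX2.

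**Figure D2:**
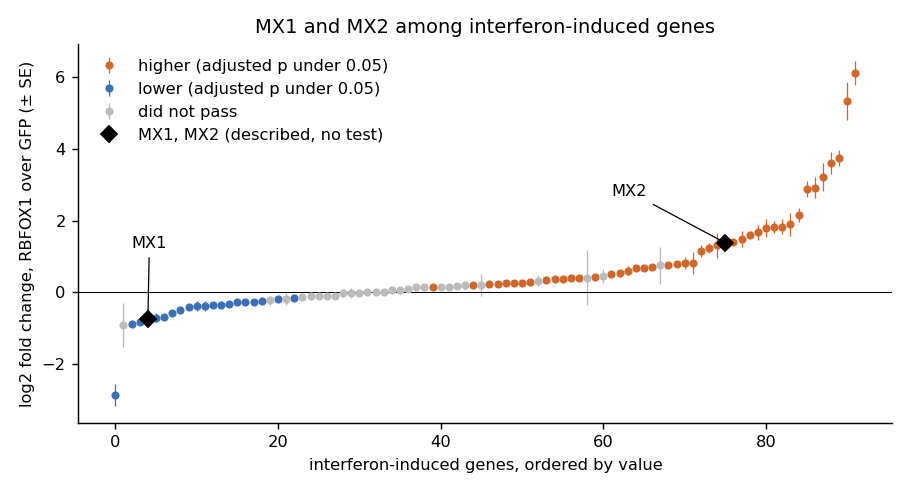
Log2 fold change, RBFOX1 over GFP, of the 90 tested interferon-induced genes in increasing order, with MX1 and MX2 placed among them, error bars of 1 SE and colours for genes higher, lower or not past the threshold. MX1 (-0.75) has 4 list members below it and MX2 (1.38) has 16 above it.

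The largest rises by the rule for named genes were those of membrane and other induced proteins, each larger than that of MX2. The minimum mean in that rule leaves out XAF1, with a log2 fold change of 5.33 (1.71 in GFP and 90.1 in RBFOX1 cells). It also leaves out GBP5, with one of 3.21 (4.31 and 41.8 normalized counts). With GFP means below that minimum, IFI27 (35.8), EPSTI1 (15.1), USP18 (35.3), IFITM1 and BST2 passed only through their level in RBFOX1 cells. IFITM1, which hinders virus entry at membranes, rose from 7.9 ± 5.33 to 522 ± 190 normalized counts (log2 fold change 6.10, SE 0.335, adjusted p = 7.42e-12 in edgeR's quasi-likelihood test), and BST2 (tetherin), which holds budding virions at the cell surface, rose from 41.2 ± 6.11 to 545 ± 169 (3.74, SE 0.214, adjusted p = 1.42e-11). IFI27, EPSTI1 and IFI6 rose by 3.60, 2.92 and 2.87 on the log2 scale, and USP18, the protease that removes ISG15 from proteins, by 2.15. For all of them except USP18 the lowest RBFOX1 value was, as for MX2, at replicate 3 and far under the other two, and USP18 too was lowest there.

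Among list members with a mean of at least 50 normalized counts, which leaves out LAMP3 (43.8 in GFP and 5.86 in RBFOX1 cells), the largest falls were near that of MX1 in size. PHF11 fell from 421 ± 17.5 to 230 ± 10.3 normalized counts (-0.87, SE 0.0806, adjusted p = 1.84e-08 in edgeR's quasi-likelihood test). SLFN5 fell from 6008 ± 407 to 3376 ± 133, PSMB10, a catalytic subunit of the immunoproteasome, from 123 ± 4.34 to 75 ± 6.29, and TLR3, an endosomal sensor of double-stranded RNA, from 374 ± 32.5 to 233 ± 3.7. PARP10 and PARP14, ADP-ribosyltransferases, fell by 0.56 and 0.50 on the log2 scale.

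By role, the counts are small and are set against 23.7% of all genes tested that were higher and 22.9% that were lower. All 5 of the OAS and RNase L arm, which makes and reads 2′-5′ oligoadenylates to degrade RNA, were higher, with a median log2 fold change of 1.15, as were 5 of 6 membrane and entry restriction genes and 3 of 4 IFIT genes, IFIT5 being lower. Of the 8 nucleic acid sensors, 1 was higher and 3 were lower, and of the 14 genes of nucleotide, RNA and capsid restriction 4 were higher and 5 lower. Of the 8 antigen processing genes, 3 were higher and 3 lower. Opposite signs within a role were thus not particular to MX1 and MX2 in the list.

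The genes whose profiles over the 6 libraries were nearest to those of MX1 and MX2 were sought among all genes and within the list. Likeness was measured as the root mean square difference (RMS) between log2 CPM profiles, each centred on its own mean, over 11976 genes with a mean of at least 50 normalized counts; it includes the difference between the lines and is a description. The 5 genes nearest to MX1 were RRAGD (RMS 0.0301), a Rag GTPase of amino acid sensing, MROH1 (0.0334), XPC (0.0356), which recognizes damaged DNA in excision repair, FBXO22 (0.0367), an F-box protein, and CORO2A (0.0383), none of which is in the interferon-induced list. Those nearest to MX2 were SLC16A6 (0.0892), a transporter, IFIT3 (0.122), IFITM3 (0.142), the lncRNA HCP5 (0.143) and ROBO1 (0.154), a receptor of axon guidance, of which IFIT3 and IFITM3 are in the list. SLC16A6 (31.1 in GFP and 83.4 in RBFOX1 cells) and HCP5 (46.3 and 125) passed the minimum of 50 only through their level in RBFOX1 cells. Within the list, PSMB10 (0.0802), SLFN5 (0.0996) and PHF11 (0.101) were nearest to MX1, and IFIT3, IFITM3 and OAS3 (0.197) to MX2. MX1 and MX2 themselves lay 1.07 apart on the log2 scale. The pair was chosen for opposite differences between the lines, which this measure holds, so a large distance follows from the choice.

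With each line centred on its own mean, so that the difference between lines is removed, MX2 had its highest and lowest library of each line where the median of the list did, while MX1 shared only the lowest RBFOX1 library. MX2 stood at 0.00969, 0.173 and -0.183 in GFP and at 0.167, 0.239 and -0.406 in RBFOX1 replicates 1 to 3 on the log2 scale, and the median of the 80 list members with at least 50 normalized counts at -0.0174, 0.0521 and -0.033 and at 0.0544, 0.124 and -0.166. MX2 and that median were both highest in replicate 2 of each line and lowest in replicate 3 of each, though the median lay close together in GFP replicates 1 and 3. Of the 80 members, 45 shared the highest and 39 the lowest GFP library of MX2, and 52 and 73 those of RBFOX1 cells. For MX1 the counts were 11 and 7 in GFP and 27 and 73 in RBFOX1 cells. MX1 stood at 0.00504, -0.0606 and 0.0556 in GFP and at 0.0852, -0.0104 and -0.0748 in RBFOX1 replicates. It was lowest in GFP replicate 2, where 61 of the 80 members were above their line mean, but it too was lowest in RBFOX1 replicate 3. These steps of MX1 are of the size of its counting error.

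The member nearest to MX2 after this centring was OASL (RMS 0.0142), an OAS relative that binds RNA, followed by IFIT3 (0.091) and HERC6 (0.0922). Those nearest to MX1 were CMTR1 (0.0392), which methylates the mRNA cap, LGALS3BP (0.0406) and NLRC5 (0.0411), a regulator of HLA class I genes. The RMS from the list median was 0.0897 for MX1 and 0.142 for MX2, so by size of the difference MX1 was the nearer, and the within-line SD on the log2 scale was 0.28 for MX2, 0.0703 for MX1 and 0.144 for the median member. Each line has 3 libraries, so these likenesses rest on few values and carry no test.

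RBFOX1 replicate 3 was low for nearly the whole list. Relative to the mean of the other two RBFOX1 libraries it was lower by 0.608 for MX2 and by 0.112 for MX1 on the log2 scale, and 78 of the 80 members were lower, with a median of -0.249. The median was -0.384 over the 39 members that were higher in RBFOX1 cells and -0.141 over the 18 that were lower, against 0.00106 over 11977 genes, a value that scaling holds near 0, of which 5913 were lower. MX1 thus moved less than the list median here, and MX2 moved more.

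**Figure D3:**
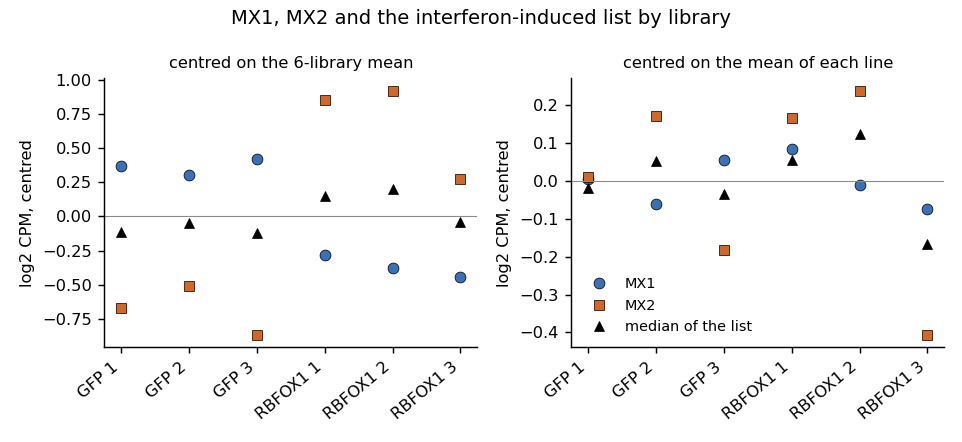
Log2 CPM of MX1, MX2 and the median of 80 interferon-induced genes in each library, centred on the mean of the 6 libraries (left) and on the mean of each line (right). On the right, MX2 and the list median are both lowest in RBFOX1 replicate 3, at -0.406 and -0.166, where MX1 is at -0.0748.

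The genes of interferon signalling, those of the type II receptor included, were mixed. Of 37 listed, 26 were tested, of which 9 (34.6%) were higher and 10 (38.5%) lower, where 23.7% and 22.9% of all genes tested were so, with a median log2 fold change of -0.085. Among ligands, IFNB1 had 4, 2 and 4 counts in GFP and 1, 1 and 3 in RBFOX1 libraries (adjusted p = 0.59 in edgeR's quasi-likelihood test), and the other 9 interferon genes listed had 0 counts throughout. Such counts do not show whether interferon RNA differed.

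The receptor subunits IFNAR1, IFNGR1, IFNGR2 and IL10RB were lower in RBFOX1 cells, with log2 fold changes of -0.44, -0.44, -0.61 and -0.75, whereas IFNAR2 did not pass (-0.26, adjusted p = 0.167 in edgeR's quasi-likelihood test). The kinases JAK1 and JAK2 fell by 0.24 and 0.57 on the log2 scale, and TYK2 did not pass (-0.051). In contrast, STAT2 and IRF9, transcription factors that act at MX promoters, were higher. STAT2 rose from 1237 to 2038 normalized counts (log2 fold change 0.72, adjusted p = 1.56e-09 in edgeR's quasi-likelihood test). IRF9, with 13 to 28 counts in a library, rose from 15.5 ± 1.54 to 30 ± 14 normalized counts (0.82, adjusted p = 0.0414 in the same test). Its libraries overlapped, with RBFOX1 replicate 3 at 15.5 normalized counts. IRF1 rose by 0.14, while IRF3 (-0.047) and IRF7 (0.20) did not pass.

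Of the genes that induce interferon, MAVS (-0.70), IKBKE (-0.55), TBK1 (-0.40) and TRAF3 (-0.40), which act in sensing of nucleic acids, were lower and STING1 (0.22) was higher, and CGAS had at most 3 counts. Of the inhibitors, SOCS3, which blocks JAK kinases, rose from 309 to 753 normalized counts (1.28, adjusted p = 1.84e-10 in edgeR's quasi-likelihood test), and USP18, PTPN2 (0.32) and PIAS1 (0.30) were higher too. SOCS1 (0.84) and IRF2 (-0.12) did not pass.

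**Figure D4:**
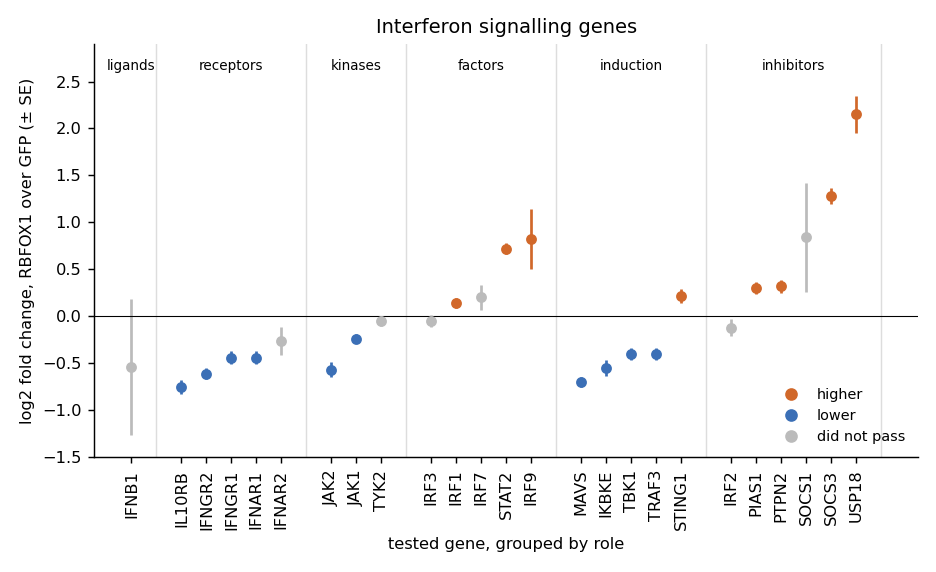
Log2 fold change, RBFOX1 over GFP, of the tested interferon signalling genes named in the text, by role, with error bars of 1 SE and colours for genes higher, lower or not past the threshold. Of the receptor subunits 4 were lower, and STAT2 (0.72) and IRF9 (0.82, at most 28 counts in a library) were higher.

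Other large GTPases of the dynamin superfamily, to which both MX proteins belong, also had both signs. Of the 19 tested, 9 (47.4%, against 23.7% of all genes) were higher, 5 (26.3%, against 22.9%) were lower and 5 did not pass. The interferon-induced guanylate-binding proteins GBP1 (0.53), GBP2 (0.67) and GBP5 (3.21, from 4.31 to 41.8 normalized counts) had the sign of MX2 in log2 fold change, and GBP3 (-0.0082) and GBP4 (0.75) did not pass. DNM1, the neuronal dynamin of endocytosis, fell from 752 to 329 normalized counts (-1.17, adjusted p = 1.81e-10 in edgeR's quasi-likelihood test), as did the endosomal EHD1 (-0.58), EHD3 (-0.31) and EHD4 (-0.29) and the mitochondrial fusion factor MFN1 (-0.15). DNM3 (1.17), DNM2 (0.21), the mitochondrial DNM1L (0.16), OPA1 (0.65) and MFN2 (0.48), and ATL2 (0.42), which fuses ER membranes, were higher.

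Genes around the pair were mostly silent or low. Of 39 listed genes within 1 Mb of MX1 and MX2, 20 had no count in any library and 8 were tested, of which 1 (12.5%) was higher and 3 (37.5%) were lower, against 23.7% and 22.9% of all genes tested. BACE2, a beta-secretase relative, fell from 1301 ± 11.9 to 1018 ± 6.85 normalized counts (-0.35, adjusted p = 1.24e-05 in edgeR's quasi-likelihood test), C2CD2 by 0.50 and ABCG1, a cholesterol exporter, by 0.43 on the log2 scale, and ZBTB21, a zinc finger repressor, rose by 0.47. PRDM15 (0.12), LINC00323 (-0.032), BACE2-IT1 (0.60) and ENSG00000227698 (0.44) did not pass, the last 3 with at most 16 counts in a library. The genes that flank the pair, FAM3B next to MX2 and TMPRSS2 overlapping the end of MX1, had at most 1 count in a library.

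**Figure D5:**
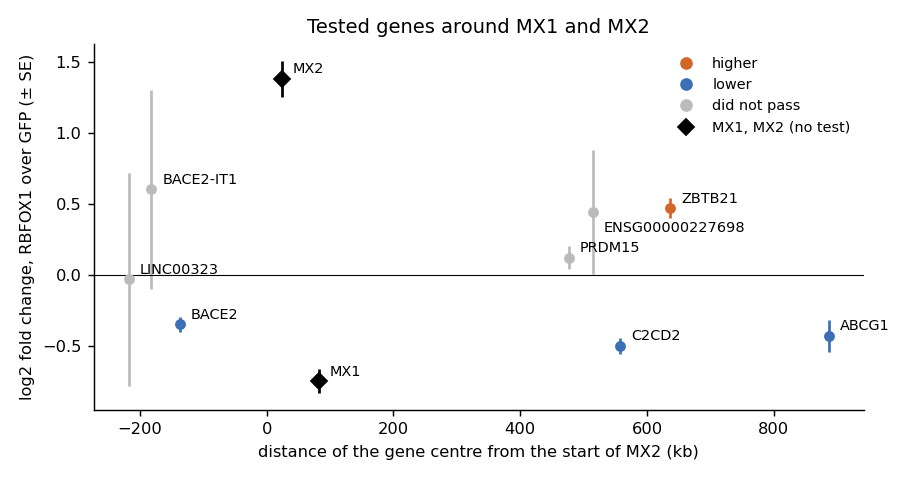
Log2 fold change, RBFOX1 over GFP, against distance of the gene centre from the start of MX2 in kilobases, for MX1, MX2 and the 8 tested genes within 1 Mb, with error bars of 1 SE. The neighbours with a call lie between -0.50 and 0.47, between MX1 (-0.75) and MX2 (1.38).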

How the data were processed

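The authors aligned reads to GRCh38 with HISAT2, counted read pairs per Ensembl gene with HTSeq-count by strand, and deposited raw counts for each library. The table of the authors' own DESeq2 comparison, also deposited, holds fold changes and p-values and was not used here. Lines that name no gene (pairs on no gene, ambiguous, of low quality or not aligned) stayed out of library sizes and tests, and 52.0 to 61.9% of pairs were on genes.

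The 20536 genes with at least 10 counts over all libraries were kept, and in R 4.3.3 their counts were scaled by TMM. Lines were compared by a two-sided quasi-likelihood test in edgeR 4.0.16 that had no term other than condition, with p-values adjusted by Benjamini-Hochberg over all genes kept. The p-values measure the spread between 3 replicates of each line. Alternatives were DESeq2 1.42.0, other scalings and filters, thinning to the smallest library, a replicate block, a stricter threshold and leaving out each library.

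MX1, MX2 and all gene lists were chosen with earlier results of these data known, so list counts are descriptions. Beyond MX1, MX2 and RBFOX1, the genes named by rule were in the interferon-induced list the 6 top rises and 6 top falls by log2 fold change (past an adjusted p of 0.05, mean at least 50 normalized counts, lines not overlapping); the signalling genes (1 of them is not reported by name here but is in the list counts); dynamin superfamily genes past the threshold; the tested genes within 1 Mb; and the genes most alike in profile. Others were named after their values were seen. Positions on GRCh38 were taken from GENCODE release 44, which is more recent than the authors' annotation, and 98.1% of gene identifiers matched.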

Additional observations from a re-analysis of the deposited data

How the results depend on the processing

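Over the alternatives, the log2 fold change of MX1 ranged from -0.78 to -0.65 and that of MX2 from 1.25 (without RBFOX1 replicate 2) to 1.58 (without RBFOX1 replicate 3), so both kept their sign. The MX1 value of -0.65 came from counts thinned to the smallest library, and the cause of this move was not tested. Interferon-induced genes higher in RBFOX1 cells numbered 36 to 49 and those lower 14 to 20, and 55 to 62 of the 62 calls were kept in the same direction under the alternatives other than an adjusted p under 0.01, which left 38 higher and 16 lower. Dynamin superfamily genes that were lower numbered 3 to 6 when single libraries were left out, with 3 without RBFOX1 replicate 3. All other counts of calls stayed within 1.5 times their value, and the chromosome 21 neighbours stayed at 1 higher and 3 lower.

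A replicate block gave -0.74 for MX1 and 1.38 for MX2, with 42 interferon-induced genes higher and 19 lower, 8 and 10 signalling genes, 9 and 5 dynamin superfamily genes, and 9046 genes called in place of 9581. Deviations of same-numbered libraries correlated at -0.174, 0.0348 and -0.0586 over 12012 genes, and those of differently numbered libraries at -0.161 to 0.181. The correlations thus gave no sign that the numbers pair the samples, but with 3 libraries per line they cannot exclude it. DESeq2 called 7669 genes.

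Interferon genes with 0 to 4 counts could not be compared at this depth, and MX1 had 125 counts in its lowest library. Each line has 3 libraries, and RBFOX1 replicate 3 had the lowest MX2 level of its line. Over all genes, GFP replicate 1, the deepest library, stood furthest from its line. The chi-square of the counts of 2 libraries over its degrees of freedom was 8.075 and 8.232 between it and GFP replicates 2 and 3. It was 1.598 between GFP replicates 2 and 3, and 1.877 to 2.8 between RBFOX1 replicates.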
